A study of Mus musculus with 6 samples.

Results

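The genes described here carry out or regulate the oxidation of fatty acids in mitochondria and peroxisomes. They are a list of 31 genes, out of 18194 genes with a probe set annotated to 1 gene on the arrays, and where several probe sets named a gene, the brightest on average was read. Of the 31 genes, 30 had such a probe set and 29 were detected, that is, they reached the median of the whole table (6.55 on the log2 scale) on at least 1 array. The exceptions were Cpt1b, the muscle form of the outer carnitine palmitoyltransferase, whose probe set is annotated to 3 symbols and was not used, and Ehhadh, a peroxisomal bifunctional enzyme, which lay under that level on every array. Cpt1b is therefore in none of the counts, and Ehhadh is given by its values only.

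The cells were 3T3-L1, an established clonal mouse line whose fibroblast-like preadipocytes turn into fat-storing adipocytes under insulin, 3-isobutyl-1-methylxanthine and dexamethasone. All groups went through that induction, were kept in medium with insulin, and were treated for 5 days while they matured. In a first experiment they received ethanol (0.1%, the vehicle), ritonavir (20 µM), an HIV protease inhibitor, or tenofovir (1 µM), a nucleotide inhibitor of HIV reverse transcriptase. In a second experiment all cells received ritonavir (20 µM), together with DMSO (0.1%, the control), c9,t11-CLA (100 µM) or t10,c12-CLA (100 µM). These last are isomers of conjugated linoleic acid that differ in the position and geometry of their double bonds. RNA from 4 replicate experiments per group was pooled and hybridised to 1 array, so the arrays hold no spread between replicates, and no difference below has an error or a test. The labels give DMSO for the control of that experiment only, and do not say whether the CLA groups also received it or whether ethanol was present, so a difference between a CLA array and the DMSO array may include the vehicle. The study's title asks how the CLA isomers differ in ritonavir-treated adipocytes. In all, 7 comparisons of arrays were made, and those that share an array are not independent of each other.

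Long-chain fatty acids are activated to acyl-CoA and enter mitochondria as carnitine esters, with the step at carnitine palmitoyltransferase 1 as the main control of the flux. Inside, each round of beta-oxidation dehydrogenates, hydrates, dehydrogenates and cleaves the chain, and the electrons of the first step reach the respiratory chain through the electron transfer flavoprotein. Peroxisomes shorten very long and branched chains, and pyruvate dehydrogenase kinases switch off the entry of glucose carbon where fat is the fuel. White adipocytes mainly store and release fat, and mature 3T3-L1 cells carry this machinery as part of their differentiated state.

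The promoters of 4 genes are shown because the results turn on them. Cpt1a and Pdk4 were the genes of the list more than 2-fold higher with t10,c12-CLA, Echs1 was the one furthest below DMSO with that isomer, and Hadhb shares its upstream region with Hadha, the other subunit of the trifunctional protein. Each is the 250 bases before the annotated start site, 5′ to 3′ on the gene's own strand, from RefSeq on GRCm38.p6. Cpt1a lies at chr19:3323051-3323300 on the plus strand, Pdk4 at chr6:5496279-5496528 on the minus strand, Echs1 at chr7:140116422-140116671 on the minus strand and Hadhb at chr5:30155003-30155252 on the plus strand. Capitals mark the nuclear receptor half-site AGGTCA, the GC box GGGCGG and the CCAAT box CCAAT, in either orientation.
Cpt1a: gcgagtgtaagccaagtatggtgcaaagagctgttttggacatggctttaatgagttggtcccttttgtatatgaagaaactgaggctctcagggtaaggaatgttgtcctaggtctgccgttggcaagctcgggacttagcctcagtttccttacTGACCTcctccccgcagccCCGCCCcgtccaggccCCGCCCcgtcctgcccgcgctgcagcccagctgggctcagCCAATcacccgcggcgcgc
Pdk4: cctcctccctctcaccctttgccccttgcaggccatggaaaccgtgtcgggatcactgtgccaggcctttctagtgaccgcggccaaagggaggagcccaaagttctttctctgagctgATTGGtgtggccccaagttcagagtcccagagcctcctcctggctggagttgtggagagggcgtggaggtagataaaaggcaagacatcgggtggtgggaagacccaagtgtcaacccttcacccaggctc
Echs1: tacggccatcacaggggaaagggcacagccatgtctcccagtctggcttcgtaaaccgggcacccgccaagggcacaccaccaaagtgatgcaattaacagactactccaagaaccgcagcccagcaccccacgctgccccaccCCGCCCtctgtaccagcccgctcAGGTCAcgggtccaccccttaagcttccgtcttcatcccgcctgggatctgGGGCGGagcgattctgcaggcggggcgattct
Hadhb: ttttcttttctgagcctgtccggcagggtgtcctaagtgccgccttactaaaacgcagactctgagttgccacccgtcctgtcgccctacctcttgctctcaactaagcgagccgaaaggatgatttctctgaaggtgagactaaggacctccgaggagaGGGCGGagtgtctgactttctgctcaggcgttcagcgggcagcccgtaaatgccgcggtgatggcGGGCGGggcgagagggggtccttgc
Cpt1a and Echs1 each held a half-site, 94 and 83 bases before the start site. Pdk4 held a CCAAT box and none of the other motifs, and Hadhb held GC boxes only. The annotated starts of Hadha and Hadhb lie 273 bases apart in opposite directions, and their promoter windows share 228 bases.

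A promoter window of 250 bases before to 50 bases after the start site was found for 26 of the 31 genes. GC boxes occurred in 20 of these 26 genes (76.9%), against 60.7% of the windows of detected genes and 35.7% of all 32851 windows. CCAAT boxes occurred in 13 (50.0%), against 37.4% of all windows. The half-site AGGTCA was in the windows of 4 genes, Acadm, Acadvl, Cpt1a and Echs1 (15.4%, against 16.3% of all windows). Neither DR1, a pair of half-sites AGGTCA in the same orientation with any 1 base between them, which binds PPAR:RXR dimers, nor TCAAGGTCA, the element of the estrogen-related receptors, which also contains it, nor TATAAA was in any of the 26 genes' windows. These motifs were in 0.0396%, 0.423% and 13.6% of all windows, and in 0.0235%, 0.258% and 7.67% of those of detected genes. Letters in a window are a description of it and not a binding site.

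**Figure D1:**
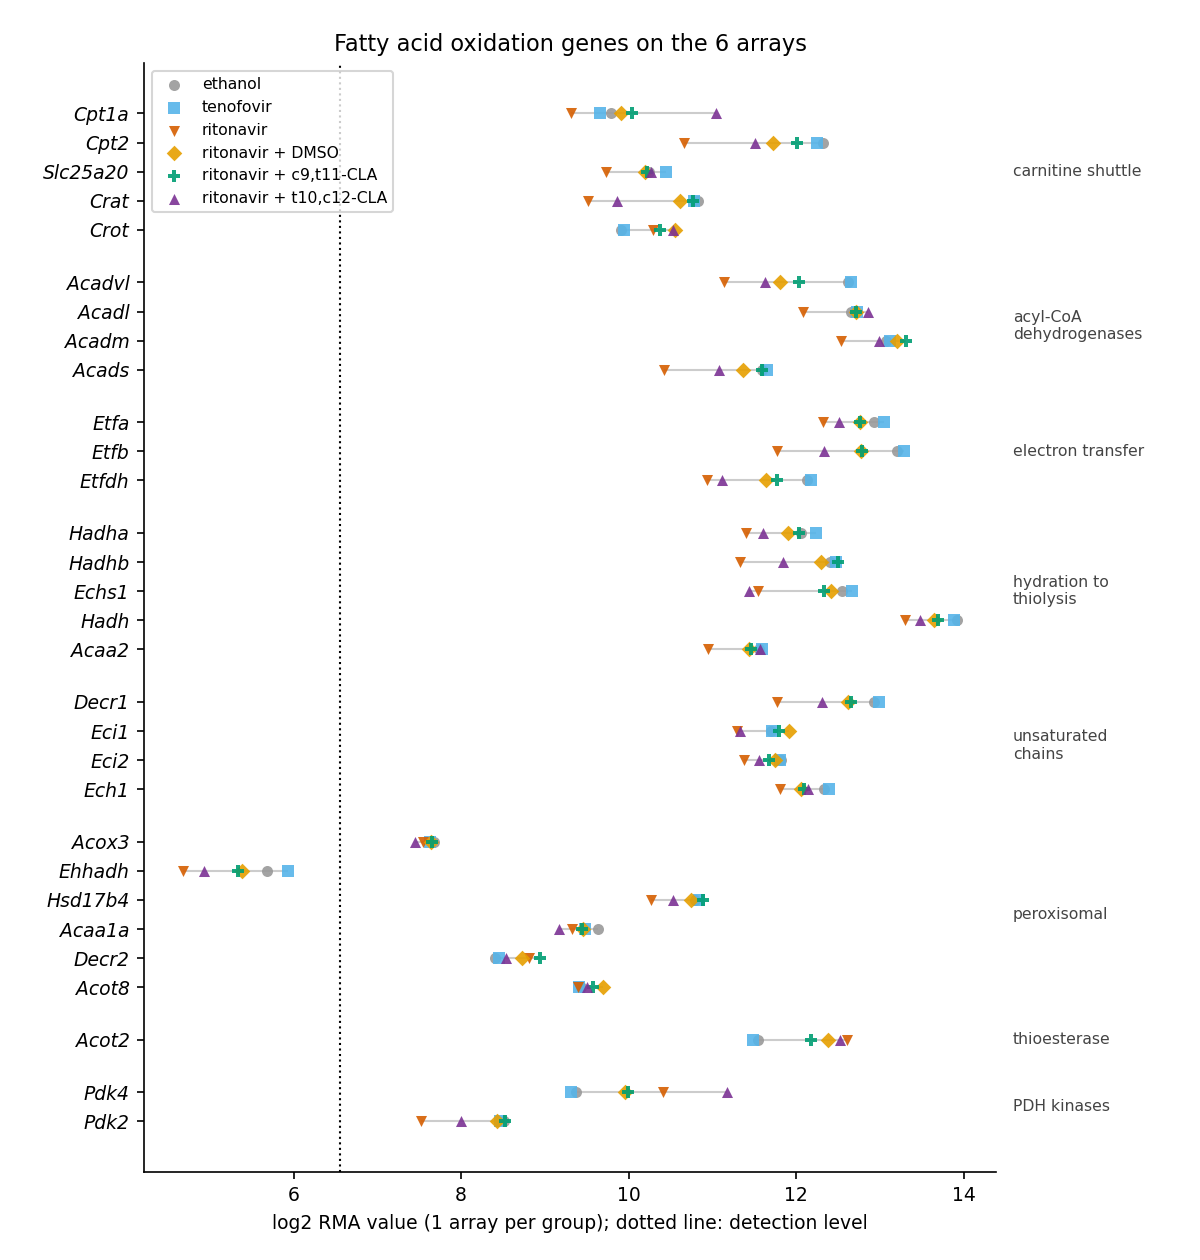
Log2 RMA values (horizontal axis) of the 30 genes with a probe set, grouped by role, with 1 point per array and the detection level as a dotted line. The ritonavir array is the leftmost point for most genes, and the t10,c12-CLA array is the rightmost for Cpt1a and Pdk4. Distances between genes are not meaningful, since probe sets differ in their response.

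On the ritonavir array most of the pathway was lower than on the ethanol array, and 4 genes (Acot2, Pdk4, Crot and Decr2) were higher. Cpt2, the inner-membrane carnitine palmitoyltransferase, Acadvl, the very-long-chain acyl-CoA dehydrogenase, and Etfb, the beta subunit of the electron transfer flavoprotein, were 3.15, 2.77 and 2.69 times lower. Acot2, a mitochondrial acyl-CoA thioesterase, and Pdk4, a pyruvate dehydrogenase kinase, were 2.09 and 2.05 times higher. Of the 29 detected genes 8 were at least 2-fold lower, where 6.39% of all detected genes were, and 2 were at least 2-fold higher, where 4.56% were. In all, 25 of the 29 were lower by any amount, against 49.8% of detected genes, and their median difference was -0.58 on the log2 scale, against 0.00 over all 12386 detected genes. With all probe sets per gene averaged, 6 genes in place of 10 were 2-fold apart, and with the mean of both arrays of ritonavir and its vehicles, 2 were. Shares of all detected genes at these settings are not given.

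In the carnitine shuttle the genes did not move alike. Cpt2 read 12.32 with ethanol, 12.25 with tenofovir, 10.66 with ritonavir, 11.73 with ritonavir and DMSO, 12.01 with c9,t11-CLA and 11.51 with t10,c12-CLA. It was thus highest on the arrays without ritonavir and lowest on that of ritonavir alone, a difference from ethanol of -1.66. Crat, the carnitine acetyltransferase of short acyl groups, read 10.83 with ethanol, 10.78 with tenofovir, 9.52 with ritonavir, 10.62 with ritonavir and DMSO, 10.77 with c9,t11-CLA and 9.86 with t10,c12-CLA. Only the ritonavir and t10,c12-CLA arrays stood clearly under the other 4. The ritonavir array was 0.47 below ethanol for Cpt1a, the liver-type outer carnitine palmitoyltransferase, and 0.51 below it for Slc25a20, the carnitine-acylcarnitine translocase. Crot, the peroxisomal carnitine octanoyltransferase, was the gene of the group that was higher (0.38), although its other detected probe set was lower (-0.11). Crat's other detected probe sets differed by -0.79 and -0.63, under 2-fold.

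All 4 mitochondrial acyl-CoA dehydrogenases, which start each round on chains of different length, were lower with ritonavir, with a median of -0.87. Acadvl read 12.61 with ethanol, 12.66 with tenofovir, 11.14 with ritonavir, 11.81 with ritonavir and DMSO, 12.04 with c9,t11-CLA and 11.63 with t10,c12-CLA. All 4 arrays with ritonavir lay under both arrays without it. Acads, for short chains, differed from ethanol by -1.17, while Acadl and Acadm, for long and medium chains, differed by -0.58 and -0.53. The very-long-chain and short-chain enzymes were thus further from ethanol than those between them.

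Genes of electron transfer had a median of -1.20. Etfb read 13.20 with ethanol, 13.29 with tenofovir, 11.77 with ritonavir, 12.78 with ritonavir and DMSO, 12.78 with c9,t11-CLA and 12.33 with t10,c12-CLA. The arrays with ritonavir again lay under those without it. Etfdh, the oxidoreductase that passes the electrons to ubiquinone, was 1.20 below ethanol, and Etfa, the partner subunit of Etfb, 0.61 below it. With probe sets averaged, which adds an undetected probe set of Etfdh, Etfdh and the median of the step were both -0.67, and that of the acyl-CoA dehydrogenases was -0.85.

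The 5 genes of hydration, second dehydrogenation and thiolysis were all lower, with a median of -0.66. Hadhb, the thiolase subunit of the trifunctional protein, read 12.40 with ethanol, 12.48 with tenofovir, 11.32 with ritonavir, 12.30 with ritonavir and DMSO, 12.50 with c9,t11-CLA and 11.85 with t10,c12-CLA. Its difference of -1.07 placed it just past 2-fold, and that of Hadha, its partner encoded head to head with it, was -0.66. A second probe set of Hadhb differed by -0.95, and the dimmest, near the detection level, by 0.04. Echs1, the short-chain enoyl-CoA hydratase, differed by -0.997, just short of 2-fold. Hadh, a hydroxyacyl-CoA dehydrogenase, and Acaa2, a thiolase, differed by -0.63 and -0.61.

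Among the auxiliary enzymes that reshape double bonds, the lowest was Decr1, the 2,4-dienoyl-CoA reductase of mitochondria. It read 12.92 with ethanol, 12.99 with tenofovir, 11.78 with ritonavir, 12.62 with ritonavir and DMSO, 12.66 with c9,t11-CLA and 12.31 with t10,c12-CLA. On this probe set ritonavir alone gave the lowest value and the arrays without ritonavir the highest. On the other probe set of Decr1 ritonavir alone was again lowest, and its difference from ethanol was -0.39 in place of -1.15. There, however, the other arrays with ritonavir all lay above both arrays without it. Ritonavir with DMSO differed from ethanol by 0.28 on that probe set, and by -0.31 on the one used. The isomerases Eci1, Eci2 and Ech1 were 0.40, 0.45 and 0.52 below ethanol.

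The peroxisomal genes had a median of -0.13 over 5 detected genes and none was 2-fold apart. Other detected probe sets gave -0.51 for Acox3, -0.68 for Hsd17b4 and -0.44 for Acaa1a, and with probe sets averaged the median was -0.32. Hsd17b4, the multifunctional protein that hydrates and dehydrogenates the chain, differed by -0.53, Acaa1a, a thiolase, by -0.31, Acox3, an acyl-CoA oxidase of branched chains, by -0.13, and Acot8, a thioesterase, by -0.03. Decr2, the peroxisomal dienoyl-CoA reductase, was higher by 0.41, while its mitochondrial counterpart Decr1 was lower. Ehhadh read 5.68 with ethanol, 4.68 with ritonavir, 5.93 with tenofovir, 5.38 with ritonavir and DMSO, 5.33 with c9,t11-CLA and 4.93 with t10,c12-CLA. Since every value was under the detection level, their order is not relied on. The probe set of Acaa1a is of a kind that can also bind related transcripts, so it and its near copy Acaa1b may share signal.

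Acot2 and Pdk4 did not follow the oxidation enzymes, while the other pyruvate dehydrogenase kinase of the list, Pdk2, was lower with ritonavir (-0.99). Acot2 read 11.55 with ethanol, 11.49 with tenofovir, 12.61 with ritonavir, 12.38 with ritonavir and DMSO, 12.18 with c9,t11-CLA and 12.52 with t10,c12-CLA. All 4 ritonavir arrays were above both others, as they were on a second probe set, which differed from ethanol by 1.21 with ritonavir. Acot1 is a close relative of Acot2 in the same gene cluster, and whether the probe sets of Acot2 also take up its signal was not tested. The probe set of Acot1 itself reached the detection level only with t10,c12-CLA (7.05). It read 6.15 with ethanol, 6.44 with ritonavir and 6.26 with ritonavir and DMSO.

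Pdk4 read 9.37 with ethanol, 9.31 with tenofovir, 10.40 with ritonavir, 9.96 with ritonavir and DMSO, 9.99 with c9,t11-CLA and 11.17 with t10,c12-CLA. The 4 ritonavir arrays all lay above the others, with t10,c12-CLA at the top. Pdk2, a second kinase of the same enzyme, read 8.51 with ethanol, 8.47 with tenofovir, 7.52 with ritonavir, 8.42 with ritonavir and DMSO, 8.52 with c9,t11-CLA and 7.99 with t10,c12-CLA. It was low on the arrays of ritonavir alone and of t10,c12-CLA, where Pdk4 was highest.

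**Figure D2:**
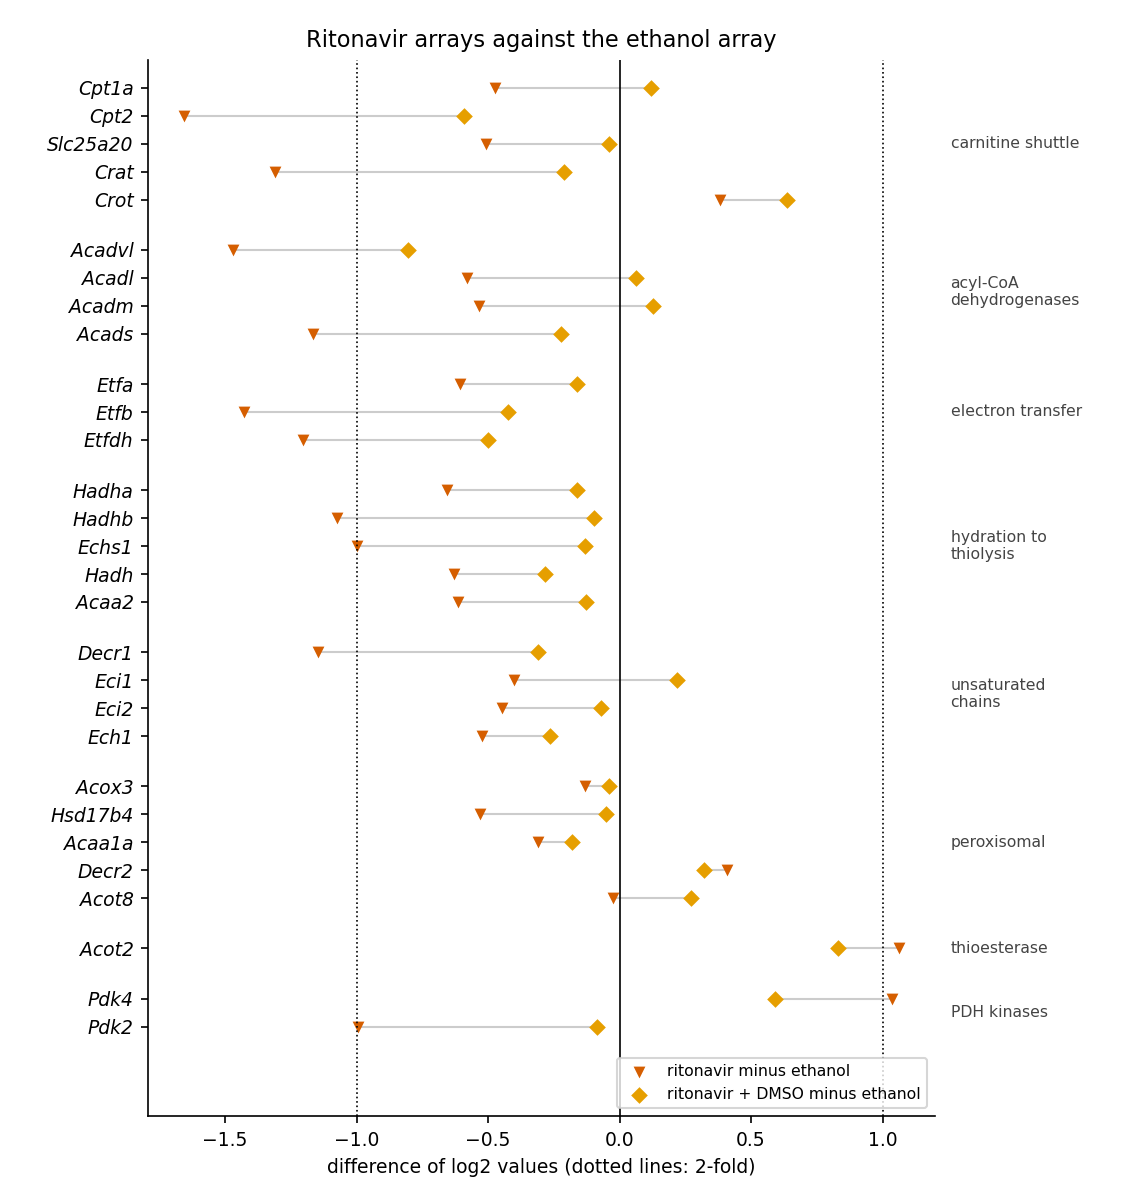
Differences in log2 value from the ethanol array for the 29 detected genes, for ritonavir (triangles) and for ritonavir with DMSO (diamonds), with dotted lines at 2-fold. For 26 genes the DMSO array lies to the right of the array of ritonavir alone, and none of its points passes a dotted line.

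The genes nearest the 2-fold line were Pdk4 (1.03), Acot2 (1.06) and Hadhb (-1.07) inside it, and Echs1 (-0.997) and Pdk2 (-0.99) outside it. Ritonavir alone gave the lowest of the 6 values for 22 of the 29 genes, where 27.5% of all detected genes were lowest on that array. The tenofovir array was highest for 11 of the 29, and for 1737 of the 12386 detected genes. The ethanol array was highest for 6, where 19.1% of detected genes were.

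Ritonavir with DMSO, the other ritonavir vehicle array, lay nearer to ethanol. None of the 29 genes was 2-fold higher (1.52% of detected genes were) or 2-fold lower (2.99% were). Their median difference from ethanol was -0.10, with 20 of 29 lower, against 47.9% of detected genes. Of 16 other detected probe sets, 7 had the sign opposite to the one used. The lowest gene was Acadvl (-0.81), followed by Cpt2 (-0.59) and Etfdh (-0.50). Acot2 (0.83), Crot (0.64) and Pdk4 (0.59) were the highest on the probe sets used. Crot's other detected probe set had the opposite sign (-0.27).

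Set directly against ritonavir alone, the array with DMSO was higher for 26 of the 29 genes (50.9% of detected genes were higher), with a median of 0.49. Crat (1.10), Cpt2 (1.06) and Etfb (1.01) were at least 2-fold higher, where 2.83% of detected genes were, and no gene was 2-fold lower (2.07%). With the mean of all probe sets, 1 gene was 2-fold apart, and the share of all detected genes at that setting is not given. Etfb was just under 2-fold after a further quantile normalization (0.979) and with the lowess trend removed (0.975). The 3 lower genes were Pdk4 (-0.44), Acot2 (-0.23) and Decr2 (-0.09), all of them genes that ritonavir alone had placed above ethanol. For 20 genes the order was ritonavir lowest, ritonavir with DMSO between, and ethanol highest, as for 23.4% of all detected genes. Cpt1a, Acadl, Acadm, Eci1 and Acot8 were below ethanol with ritonavir alone and above it with DMSO (13.2% of detected genes were). Since DMSO and the second experiment came together, their parts in this difference cannot be told apart.

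The tenofovir array was the nearest to ethanol for this pathway. No gene of the 29 was 2-fold apart, nor was any detected gene (0.00% in either direction). Differences ran from -0.15 for Acaa1a to 0.21 for Slc25a20, with a median of 0.04 and 18 genes higher, where 46.3% of detected genes were. Of 16 other detected probe sets, 7 had the sign opposite to the one used. Pdk4 differed by -0.06 and Cpt1a by -0.14. The robust SD over all detected genes was 0.11, against 0.44 for ritonavir, which describes the spread over genes and not over replicates.

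At the same dose and time, and with ritonavir in each, t10,c12-CLA and c9,t11-CLA differed most for Pdk4 and Cpt1a, both more than 2-fold higher with t10,c12-CLA, and in the opposite direction for Crat and Echs1. With c9,t11-CLA the pathway stayed close to the DMSO array on the probe sets used. With t10,c12-CLA Cpt1a and Pdk4 were higher while most other genes were slightly lower. These 2 isomers are the only pair of compounds given at the same dose, and with 1 array each neither a test nor an interval of their difference can be had.

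Cpt1a read 9.79 with ethanol, 9.65 with tenofovir, 9.32 with ritonavir, 9.91 with ritonavir and DMSO, 10.04 with c9,t11-CLA and 11.04 with t10,c12-CLA. The t10,c12-CLA array stood alone above the other 5. It was 2.19 times higher than DMSO, rank 66 from the top of 12386 detected genes, and 2.01 times higher than c9,t11-CLA. The other probe sets of Cpt1a gave log2 differences from DMSO of 1.08 and 0.93, beside 1.13 for the one used. Pdk4, whose values are given above, was 2.31 times higher than DMSO (rank 54) and 2.26 times higher than c9,t11-CLA. Cpt1a and Pdk4 were the 2 genes of the 29 at least 2-fold higher with t10,c12-CLA than with DMSO, where 0.783% of detected genes were, and none was 2-fold lower, where 1.05% were.

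Echs1 read 12.55 with ethanol, 12.66 with tenofovir, 11.55 with ritonavir, 12.42 with ritonavir and DMSO, 12.33 with c9,t11-CLA and 11.43 with t10,c12-CLA. The t10,c12-CLA and ritonavir arrays were close together at the bottom. Its difference from DMSO was -0.98, just under 2-fold, and rank 139 from the lowest of all detected genes. Crat was lower by 0.75, Eci1 by 0.59 and Etfdh by 0.52 on the probe sets used. Other detected probe sets of Crat differed by -0.37 and -0.41. Hadhb differed by -0.45 on the probe set used, and by -0.89 and -0.13 on its others. In all, 22 of the 29 genes were lower with t10,c12-CLA than with DMSO, against 47.1% of detected genes, with a median of -0.21 against 0.02 over all detected genes.

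By role, the medians of t10,c12-CLA against DMSO were -0.45 for electron transfer (-0.25 with probe sets averaged), -0.30 for hydration to thiolysis, -0.25 for the unsaturated-chain enzymes, -0.20 for peroxisomal oxidation, -0.19 for the acyl-CoA dehydrogenases and -0.02 for the carnitine shuttle. All 5 detected peroxisomal genes were lower, by 0.19 to 0.28 on the probe sets used. Other detected probe sets gave -0.70 for Acox3, -0.58 for Acaa1a and -0.49 for Hsd17b4, and with probe sets averaged the median was -0.35. The shuttle's median hides a range from -0.75 for Crat to 1.13 for Cpt1a. Besides Cpt1a and Pdk4, the genes higher than DMSO were Acot2 (0.14), Acadl (0.14), Acaa2 (0.14), Ech1 (0.08) and Slc25a20 (0.07), of which Acaa2, Acadl and Slc25a20 were below DMSO with probe sets averaged.

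**Figure D3:**
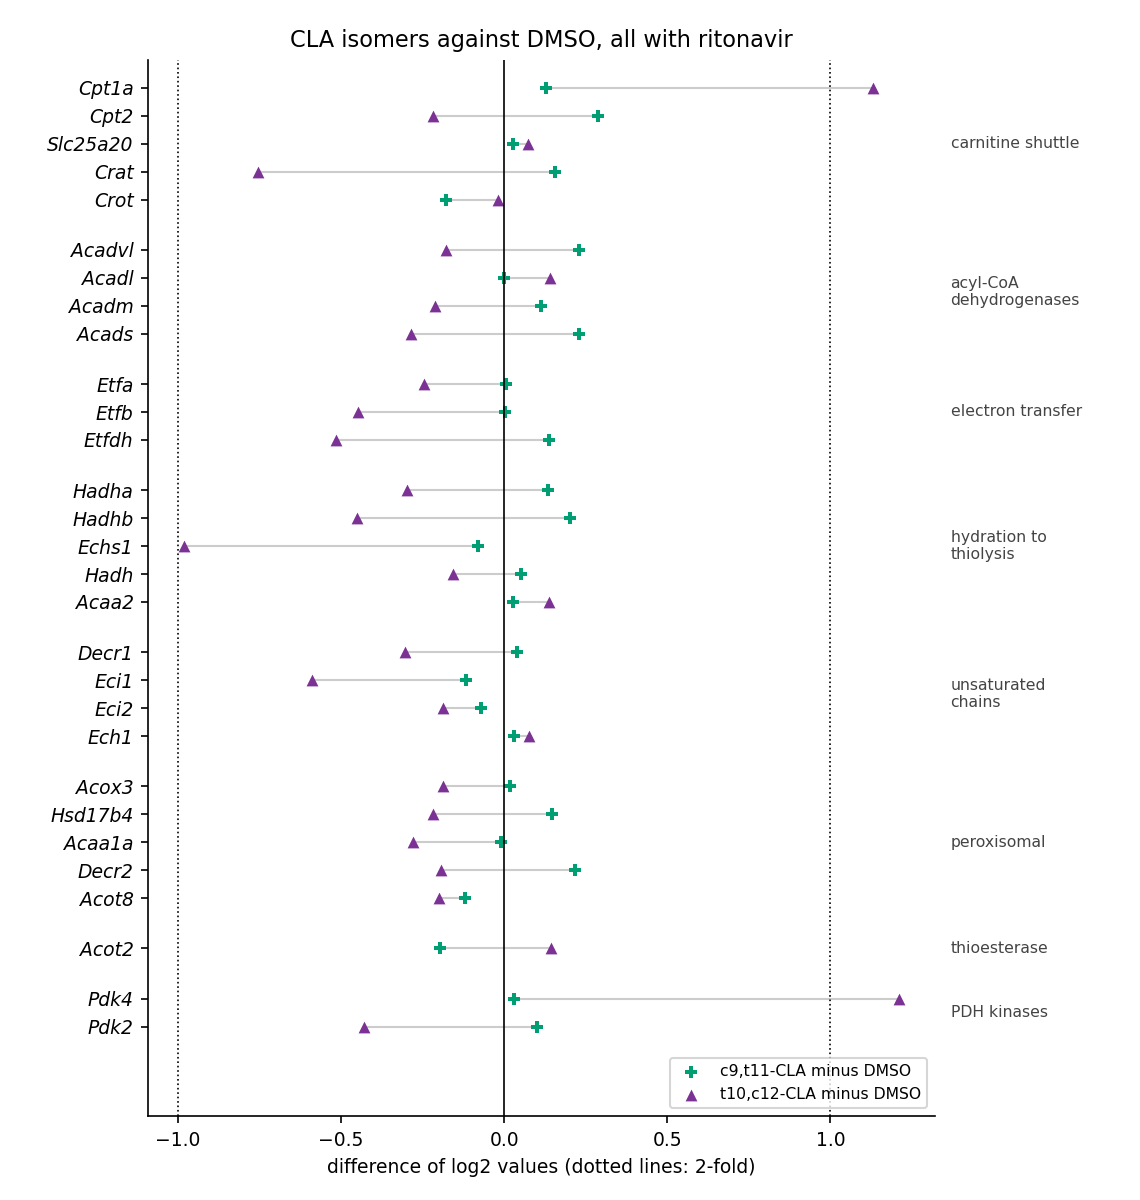
Differences in log2 value from the array of ritonavir with DMSO for the 29 detected genes, for c9,t11-CLA (crosses) and t10,c12-CLA (triangles), with dotted lines at 2-fold. The crosses lie between -0.20 and 0.29, and the triangles of Cpt1a (1.13) and Pdk4 (1.21) lie past the upper line.

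With c9,t11-CLA no gene was 2-fold from DMSO (0.00% of detected genes were higher and 0.00807% lower). On the probe sets used, the furthest were Cpt2 (0.29), Acads (0.23), Acadvl (0.23) and Decr2 (0.22) upward, and Acot2 (-0.20) and Crot (-0.18) downward. Other detected probe sets gave -0.58 and -0.07 for Acaa2, beside 0.03 on the one used, and 0.19 for Crot. The median was 0.03, with 21 of 29 genes higher, against 52.3% of detected genes. With probe sets averaged it was 0.0041, with 17 of 29 higher, and 10 of 16 other detected probe sets had the sign opposite to the one used. For 16 genes c9,t11-CLA lay above DMSO and t10,c12-CLA below it, as for 20.7% of all detected genes.

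Between the isomers, Pdk4 (1.18) and Cpt1a (1.00) were at least 2-fold higher with t10,c12-CLA, where 0.953% of detected genes were, and none of the 29 was 2-fold lower (1.53%). Crat (-0.91), Echs1 (-0.90), Etfdh (-0.66), Hadhb (-0.65) and Pdk2 (-0.53) were the furthest below on the probe sets used. Other detected probe sets gave -0.55 and -0.43 for Crat, and -0.69 and -0.06 for Hadhb. In all, 21 genes were lower with t10,c12-CLA, against 48.1% of detected genes, and the median was -0.33. On the probe sets used, the isomers were close for Slc25a20 and Ech1 (0.05 each), Acot8 (-0.08) and Acaa2 (0.11). Other detected probe sets of Acaa2 gave 0.03 and 0.42. The difference of Cpt1a was 0.994 after a further quantile normalization and 0.981 with the lowess trend removed, just under 2-fold, and 1.16 with its 3 probe sets averaged.

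**Figure D4:**
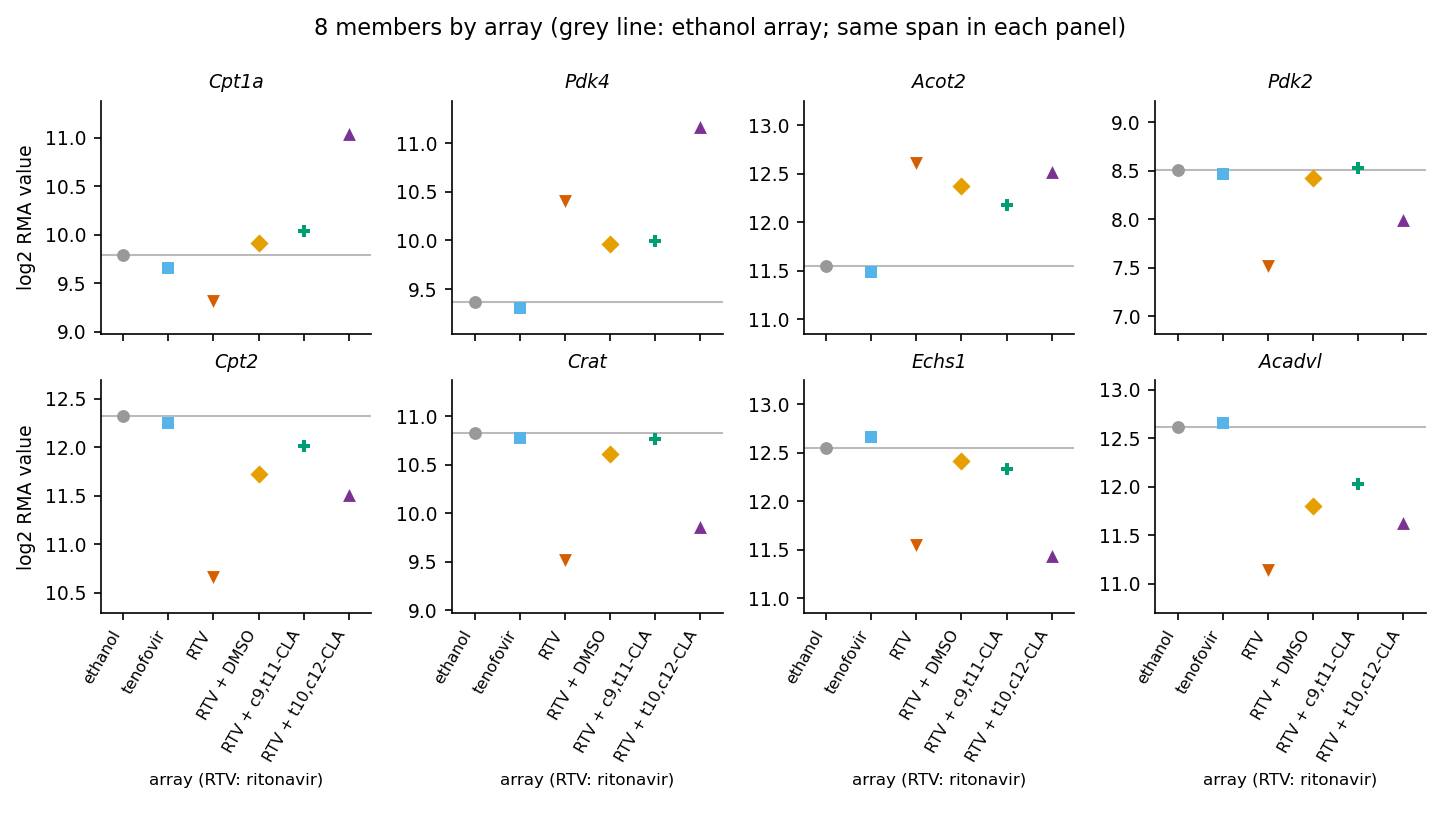
Log2 RMA values of 8 genes by array, with a grey line at the ethanol value and the same span on each vertical axis. Cpt1a and Pdk4 are highest with t10,c12-CLA, Acot2 is above the line on all 4 ritonavir arrays, and Cpt2, Crat, Pdk2 and Acadvl are lowest with ritonavir alone.

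Other genes of acyl-CoA and peroxisomal oxidation shared the direction of the list with ritonavir, although the ends of the range were wider. Of 26 detected genes, 6 were at least 2-fold lower than ethanol (6.39% of all detected genes were) and 1 was 2-fold higher (4.56% were). The median of the 26 was -0.45. Abcd2, the peroxisomal transporter of very-long-chain acyl-CoA, read 11.15 with ethanol, 11.28 with tenofovir, 6.34 with ritonavir, 8.96 with ritonavir and DMSO, 9.44 with c9,t11-CLA and 8.75 with t10,c12-CLA. All ritonavir arrays were low and that of ritonavir alone was under the detection level, so the size of its difference (-4.82) is uncertain. Scp2, a sterol carrier and thiolase, differed by -1.64. The peroxisomal thiolase Acaa1b read 7.01 with ethanol and was under the detection level with ritonavir, and with low values raised to that level it differed by -0.46 and 5 genes of the list were 2-fold lower. The gene that was higher was Cpt1c, the brain form of the outer transferase, which differed by 1.92 with ritonavir and was again higher with t10,c12-CLA than with DMSO (0.88). With t10,c12-CLA against DMSO, Acaa1b was again under the level (7.12 with DMSO), and with low values raised no gene of this list was 2-fold apart in that comparison.

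Regulators of the pathway had a median of -0.70 with ritonavir over 14 detected genes. Of these, 4 were at least 2-fold lower (6.39% of all detected genes were) and 1 was 2-fold higher (4.56% were). Pparg, the adipocyte's PPAR, read 12.97 with ethanol, 12.95 with tenofovir, 10.48 with ritonavir, 11.89 with ritonavir and DMSO, 12.09 with c9,t11-CLA and 11.25 with t10,c12-CLA. Ppargc1a, a coactivator of oxidative metabolism, went the other way, at 8.47 with ethanol, 8.51 with tenofovir, 10.50 with ritonavir, 10.25 with ritonavir and DMSO, 10.13 with c9,t11-CLA and 9.80 with t10,c12-CLA. Pparg was thus lower and Ppargc1a higher on each array with ritonavir than on either without it. Differences from ethanol with ritonavir were -2.81 for Lpin1, a lipin that also coactivates PPAR targets, -1.18 for Ppard, -0.96 for Ppargc1b, -0.67 for Acacb, which makes the malonyl-CoA that inhibits carnitine palmitoyltransferase 1, and -0.48 for Esrra (0.01 with its probe sets averaged). With probe sets averaged the median of the list was -0.43, over 13 detected genes. Ppara was under the detection level on every array. With t10,c12-CLA against DMSO, 13 of the 14 were lower (median -0.49, or -0.28 with probe sets averaged), against 47.1% of detected genes. Of them, Lpin1 (-1.33) was past 2-fold, where 1.05% of detected genes were.

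The pyruvate dehydrogenase complex and its other regulators were also mostly lower with ritonavir (9 of 10, median -0.67), against 49.8% of detected genes. Pdp1, the phosphatase that opposes the kinases, was higher by 1.09, and Pdk1, another kinase, was lower by 1.06. With t10,c12-CLA against DMSO, Pdk1 differed by -0.89 and Pdp1 by 0.48, so among the kinases named here Pdk4 was the one that was higher.

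Genes of the energy pathways downstream differed in the same direction as each other. All 15 detected genes of the TCA cycle and all 18 of the respiratory chain were lower with ritonavir, against 49.8% of detected genes. Their medians were -0.53 and -0.46. The same 15 and 18 genes were all lower with t10,c12-CLA than with DMSO, against 47.1% of detected genes. Their medians were then -0.43 and -0.36, beside -0.21 for the oxidation genes. With probe sets averaged, 14 of 15 and 17 of 18 were lower with ritonavir. Citrate synthase, Cs, differed by -0.64 and -0.48. The median of the oxidation genes (-0.58) was near those of the TCA cycle and respiratory chain, and no difference between these lists was tested.

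**Figure D5:**
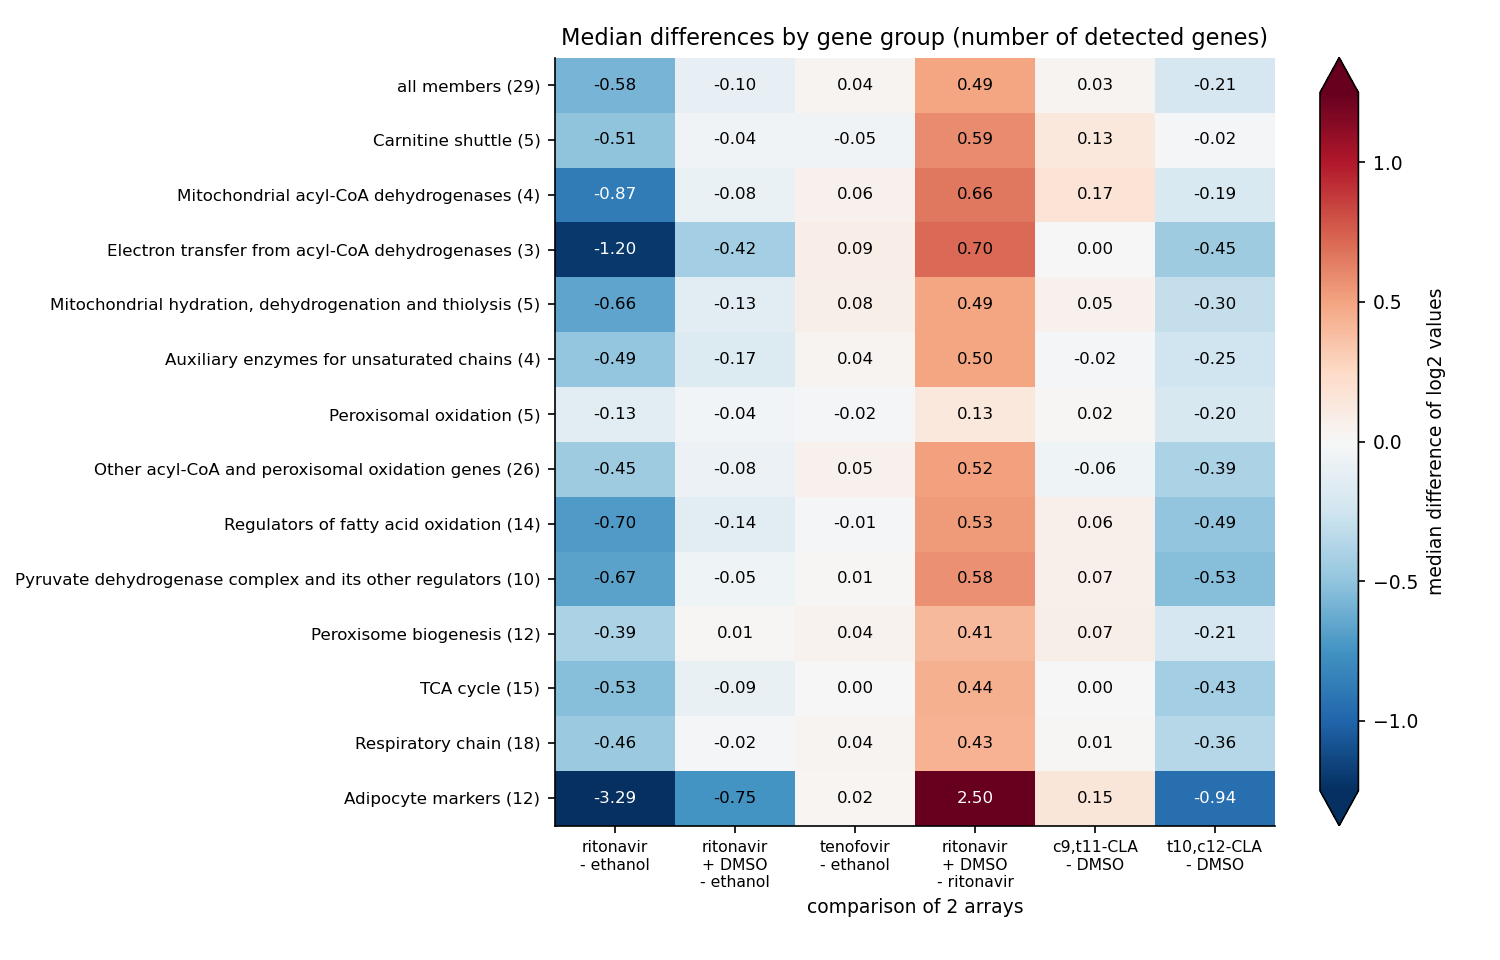
Median difference of log2 values by gene group (rows, with the number of detected genes) and comparison of 2 arrays (columns), with the value in each cell. The adipocyte markers (-3.29 with ritonavir) lie past the end of the colour scale, and among the groups drawn the column of t10,c12-CLA holds values from -0.94 to -0.02. Preadipocyte and fibroblast markers (0.46 in that column) and the kinases of the list are not drawn.

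Markers of the labelled cell type also differed between the arrays. Of 12 adipocyte markers with a probe set (14 were listed), 10 were at least 2-fold lower with ritonavir (6.39% of detected genes were), with a median of -3.29. With t10,c12-CLA, 5 were at least 2-fold lower than with DMSO (1.05% of detected genes were), with a median of -0.94. Among the 10, Lep was under the detection level with ritonavir, and with low values raised to that level it differed by -0.38. With ritonavir and DMSO, 4 of the 12 were at least 2-fold lower than with ethanol (2.99% of detected genes were). The median of the 12 was then -0.75, beside -0.10 for the oxidation genes. Lep was again under the level there, and differed by -0.38 with low values raised. The summed log2 value of the 12 was 155 with ethanol, 156 with tenofovir, 116 with ritonavir, 146 with ritonavir and DMSO, 148 with c9,t11-CLA and 132 with t10,c12-CLA. Adipoq, the adipokine adiponectin, read 14.79 with ethanol and 10.18 with ritonavir, and Fabp4, the fatty acid binding protein, 14.89 and 13.98. Both stayed well above the detection level on every array. Of 8 detected preadipocyte and fibroblast markers 4 were at least 2-fold higher with ritonavir (4.56% of detected genes were), and their median difference was 1.15. The 8 ran from -0.11 for Dlk1 to 3.77 for Tagln, with 2 below ethanol. With ritonavir and DMSO, 2 were at least 2-fold lower than with ethanol (2.99% of detected genes were), Dlk1 by the most (-1.77), and the median was -0.44. The summed value of the 9 with a probe set was 94.7 with ethanol, 105 with ritonavir, 91.4 with ritonavir and DMSO, and 95.3 with t10,c12-CLA. In pooled RNA, fewer adipocytes and less RNA of these genes per adipocyte cannot be told apart, and the markers' part in the differences of the oxidation genes was not tested.

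Markers of other cells were detected only in part. Among the 5 macrophage markers, 2 were detected. Cd68 differed from ethanol by 1.83 with ritonavir and by 1.56 with ritonavir and DMSO, and from DMSO by 1.67 with t10,c12-CLA. Csf1r, the other detected marker, differed by -0.19, -0.23 and 0.15 in the same comparisons. The part of either gene in the results was not tested. The list's summed value was 28.8 with ethanol, 30.1 with ritonavir, 30.0 with ritonavir and DMSO, 29.5 with c9,t11-CLA and 31.8 with t10,c12-CLA. Adgre1, Ptprc and Itgam, defining genes of that list, were under the level on every array. Detected markers numbered 3 of 6 for muscle, 1 of 5 for endothelium and 2 of 4 for liver. The medians of the 6 arrays lay between 6.54 and 6.56, so no array stood apart in its overall scale, which the normalization sets equal.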

How the data were processed

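Per the labels' protocols, RNA of 4 experiments was pooled within each group and measured on a single Affymetrix Mouse Genome array. The authors deposited log2 values made with RMA in Affymetrix Expression Console, per the submitters' processing notes (version: not given in the sources used). RMA corrects background, makes the distributions of the arrays equal and summarises each probe set, so an offset common to nearly all genes is lost and values near the top of the scale can be compressed. With 1 array per group no test was made. Of 45101 probe sets, 34958 had 1 gene in the platform annotation, 932 had several and 9211 were not listed. A difference is that of the log2 values of a pair of arrays, and a gene counts as apart at 2-fold. Genes were used if they reached the table's median on at least 1 array (12386 of 18194), since no detection calls were used. Values of different probe sets were not compared as levels. All 31 genes were described. Of the other lists, genes at least 2-fold apart (the 3 largest in each direction) could be named, together with a short list that includes Ppara, Ppard, Pparg, Ppargc1a, Ppargc1b, Esrra, Acacb, Acsl1, Cs, Adipoq, Fabp4 and Plin1, of which Acsl1 and Plin1 had no probe set of 1 gene. Cd68, Csf1r and the undetected macrophage genes come from the marker lists. The members and lists were chosen with earlier results of these data known. Alternatives were the probe set rule, its suffix, the detection level, raising low values to it, quantile normalization again, a lowess trend (span 0.3), folds of 1.5 and 3, and the mean of both ritonavir arrays. Averaging probe sets and raising low values within roles and the other lists was added after seeing the data. Promoters were read from RefSeq on GRCm38.p6 and searched on both strands. Calculations used Python 3.11.15, numpy 2.4.6, pandas 2.3.3 and statsmodels 0.14.6, and were tested on simulated data.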

Additional observations from a re-analysis of the deposited data

How the results depend on the processing

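No alternative turned the sign of the median over all detected members, and none of the genes at least 2-fold apart changed sign. Of 1361 single-gene values, 34 changed sign, all under 2-fold as reported and 25 of them with all probe sets averaged; 1245 stayed within the tolerance of 0.113 (the robust SD of tenofovir against ethanol) and 116 moved. The number of genes at least 2-fold apart moved most. Shares of all detected genes are not given for these settings, so the counts show only how far the number depends on the setting. For ritonavir against ethanol (10 genes) it was 6 with the mean of all probe sets, 16 at 1.5-fold, 1 at 3-fold and 2 with the mean of both ritonavir arrays, where the median was -0.37. For ritonavir with DMSO against ritonavir (3 genes) it was 1 with the mean of all probe sets, 14 at 1.5-fold and 0 at 3-fold. At 1.5-fold, 5 genes differed between ritonavir with DMSO and ethanol, 3 of them higher and 2 lower. Crot, among the higher, had the opposite sign on its other detected probe set. For t10,c12-CLA against DMSO (2 genes) it was 5 at 1.5-fold and 0 at 3-fold. Between the isomers (2 genes) it was 1 with quantile normalization, 1 with the lowess trend, 6 at 1.5-fold and 0 at 3-fold. Cpt2 and Acadvl with ritonavir, and Cpt1a and Pdk4 with t10,c12-CLA against DMSO, stayed past 2-fold under every alternative that kept that threshold. The other medians stayed between -0.14 and -0.07 for ritonavir with DMSO against ethanol, 0.0135 and 0.0504 for tenofovir, 0.0041 and 0.0529 for c9,t11-CLA, 0.47 and 0.56 for DMSO against ritonavir alone, -0.24 and -0.19 for t10,c12-CLA against DMSO, and -0.35 and -0.30 between the isomers. No paired analysis was possible because each group has 1 array and no replicate numbers. Pooled RNA gives no measure of the variation between experiments, and genes near the detection level have differences that rest on background.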

Other observations

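Peroxisome biogenesis and fatty acid activation add to the values above. Of 12 detected genes of peroxisome biogenesis, 10 were lower with ritonavir than with ethanol (median -0.39), against 49.8% of detected genes. Pex16, which inserts peroxisomal membrane proteins, differed by -1.78 and Pex11a, a factor of peroxisome division, by -1.30. These were the 2 genes at least 2-fold apart, where 6.39% of detected genes were 2-fold lower. With DMSO added to ritonavir, Pex16 differed from ethanol by -0.52 and Pex11a by -0.25. With t10,c12-CLA against DMSO, Pex16 differed by -0.72 and Pex11a by 0.04. Among 6 detected acyl-CoA synthetases and fatty acid transport proteins, Acsl3, a synthetase of lipid droplets, was the gene 2-fold lower with ritonavir (-1.47), and it was 0.67 below DMSO with t10,c12-CLA.

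Acox2 and Phyh, peroxisomal enzymes of branched-chain and bile acid side-chain oxidation, had another order. Acox2 read 8.16 with ethanol, 8.02 with tenofovir, 9.01 with ritonavir, 9.91 with ritonavir and DMSO, 9.69 with c9,t11-CLA and 8.96 with t10,c12-CLA. It was highest with ritonavir and DMSO, 1.75 above ethanol, where most oxidation genes lay near ethanol. Phyh, the phytanoyl-CoA hydroxylase, was likewise highest on that array, 1.05 above ethanol, and 0.67 below it with t10,c12-CLA.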
